A study of Mus musculus with 14 samples.

Results

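The transcripts of 9 genes that encode the signalling part of the T cell receptor and the first proteins it acts on were followed through 14 mouse mammary tumors. They were taken by gene symbol from the 56414 rows of the deposited expression table (Cd3d, Cd3e, Cd3g, Cd247, Cd2, Cd5, Lck, Zap70 and Lat), and all 9 were found and passed the filter on low values in every comparison. The list of symbols was chosen with earlier results of these data known. Within that list, the symbol decided which row entered. A measured level was used for this only for Cd247, which had 2 rows and was represented by the row with the higher mean.

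The tumors came from C57Bl/6 mice and fall into 4 groups. M/D-driven tumors arose in female mice that were 6 to 9 weeks old when a pellet releasing medroxyprogesterone acetate (MPA, a progestin) was placed under the skin, after which the carcinogen 7,12-dimethylbenz[a]anthracene (DMBA) was given repeatedly by gavage. Of these, 4 were untreated and 4 came from mice given nicotinamide (NAM, a form of vitamin B3) at 0.5% in drinking water for 10 days. AT3 tumors grew from an established mouse mammary carcinoma line injected under the skin, and 3 were untreated and 3 NAM-treated in the same way. Treatment started once a tumor reached a set size. The mice carried no engineered allele according to the labels, M/D-driven tumors arise one by one with variable latency, and AT3 tumors descend from 1 line. The labels place the untreated M/D tumors and NAM-treated M/D tumors 2, 3 and 4 in experiment 1, NAM-treated M/D tumor 1 alone in experiment 2, and the AT3 tumors in experiment 3, so that model and experiment cannot be told apart. Each library is a separate tumor by its label, but nothing states which tumors shared a mouse or a cage, so that p values measure the spread between these tumors.

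The T cell receptor binds a peptide on an MHC molecule through its variable chains, which have almost no cytoplasmic tail. The signal is passed on by the CD3 chains and the zeta chain, whose tyrosines are phosphorylated by the kinase LCK and then bound by the kinase ZAP70, which phosphorylates the adapter LAT. CD2 and CD5 are surface receptors of T cells that tune this signal upward and downward, respectively. In a tumor, these transcripts mostly come from infiltrating T cells, with NK cells and some other lymphocytes sharing a few of them.

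Whole reads were recovered from the deposited values, and each tumor had 40936868 to 84178009 reads over all genes. The 9 genes had 21 to 7233 reads in a tumor (103 to 7233 in M/D tumors and 21 to 792 in AT3 tumors). One library stood apart: in NAM-treated M/D tumor 1, 28.1% of the 21700 genes tested reached their highest level among the 8 M/D tumors and 27.3% their lowest. Its summed normalized count over 9 epithelial marker genes was 7860, vs 267110 to 1045301 in the 7 other M/D tumors, and all 9 were at their lowest in it. Its sum over 8 B cell markers was 191215, whereas the 7 others had 169.7 to 2240. Its sum over 7 markers of precursor lymphocytes was 203120, and the others had 651.8 to 1355. These markers did not move together. Igll1 was at 80368 in this tumor, Vpreb1 at 67823, Vpreb3 at 44064 and Dntt at 1384. Ptcra was at 0, and Rag1 was at 475 vs 622.5 to 1337 in the others. The genes named here were picked after their values were seen. This library carries a mammary tumor label, yet its epithelial markers were low and its lymphoid markers high. The NAM effects on the 9 genes in M/D tumors are therefore given with and without it. In AT3 tumors, the level of a gene relative to the other tumors moved with transcript length, with a Spearman coefficient of −0.53, −0.0044 and −0.51 over 16429 genes in untreated tumors 1, 2 and 3, and of −0.20, 0.56 and 0.59 in NAM-treated tumors 1, 2 and 3. In M/D tumors, the coefficient over 18460 genes was −0.31 in NAM-treated tumor 2 and between −0.065 and 0.15 in the 7 others. The AT3 results on the 9 genes, and the largest NAM effects in M/D tumors, are also given after the trends of length and GC content were removed.

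Cd3g, Cd3d and Cd3e lie side by side on chromosome 9 (mm10), at chr9:44969572-44980432 on the minus strand, chr9:44981784-44987339 on the plus strand and chr9:44998743-45009594 on the minus strand. Their promoters are shown because these transcripts moved together from tumor to tumor, and those of Lck because Lck left them in 1 tumor. The sequences are RefSeq windows of GRCm38.p6, 250 bases before to 50 bases after each start site, read 5′ to 3′ on the strand of the gene. Such windows were found for 8 of the 9 genes (11 windows, none for Cd2). Capitals mark matches on either strand to GGAAGT (ETS factors), TGTGGT (RUNX factors), CAGNTG (E-box proteins) and CTTTGA (TCF factors).
Cd3g, chr9:44980382-44980681, minus strand: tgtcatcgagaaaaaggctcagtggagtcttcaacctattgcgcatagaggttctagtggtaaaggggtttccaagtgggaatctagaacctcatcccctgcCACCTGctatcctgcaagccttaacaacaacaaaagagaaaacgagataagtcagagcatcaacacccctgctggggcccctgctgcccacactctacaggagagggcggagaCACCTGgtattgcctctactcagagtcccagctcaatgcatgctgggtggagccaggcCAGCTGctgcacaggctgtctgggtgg
Cd3d, chr9:44981536-44981835, plus strand: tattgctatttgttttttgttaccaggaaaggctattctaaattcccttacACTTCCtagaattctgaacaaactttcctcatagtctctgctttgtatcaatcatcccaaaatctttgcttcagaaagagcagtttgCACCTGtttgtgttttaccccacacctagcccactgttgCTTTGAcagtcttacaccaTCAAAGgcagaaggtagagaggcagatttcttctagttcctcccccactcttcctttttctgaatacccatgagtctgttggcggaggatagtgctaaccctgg
Cd3e, chr9:45009562-45009861, minus strand: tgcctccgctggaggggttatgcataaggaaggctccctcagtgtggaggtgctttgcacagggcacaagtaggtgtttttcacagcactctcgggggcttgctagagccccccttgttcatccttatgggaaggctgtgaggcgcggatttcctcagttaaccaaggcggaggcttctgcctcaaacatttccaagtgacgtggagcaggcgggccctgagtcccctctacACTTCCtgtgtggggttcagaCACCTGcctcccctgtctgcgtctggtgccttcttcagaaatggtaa
Lck, upstream start, chr4:129573592-129573891, minus strand: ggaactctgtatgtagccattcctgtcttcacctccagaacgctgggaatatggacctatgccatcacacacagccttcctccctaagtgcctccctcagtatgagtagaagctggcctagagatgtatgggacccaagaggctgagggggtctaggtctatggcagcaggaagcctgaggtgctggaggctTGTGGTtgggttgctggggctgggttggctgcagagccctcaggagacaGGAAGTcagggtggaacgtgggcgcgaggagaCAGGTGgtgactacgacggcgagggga
Lck, downstream start, chr4:129558323-129558622, minus strand: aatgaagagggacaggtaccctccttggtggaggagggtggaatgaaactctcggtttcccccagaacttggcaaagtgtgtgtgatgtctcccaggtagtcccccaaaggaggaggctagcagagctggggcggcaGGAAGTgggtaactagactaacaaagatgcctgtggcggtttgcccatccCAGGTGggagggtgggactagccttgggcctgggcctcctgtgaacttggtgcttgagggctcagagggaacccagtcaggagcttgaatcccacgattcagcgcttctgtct

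The start sites of Cd3g and Cd3d were 1355 bases apart and pointed away from each other, and those of Cd3d and Cd3e were 27825 bases apart. The Cd3g window held 3 E-box matches and no ETS match, that of Cd3d held 1 ETS, 1 E-box and 2 TCF matches, and that of Cd3e held 1 ETS and 1 E-box match. Lck has start sites 15269 bases apart, and both windows held 1 ETS and 1 E-box match, with a RUNX match at the upstream one as well. An ETS match was present in 7 of the 11 windows vs 23.8% of 32851 promoters of the same length, and an E-box match in 10 of 11 vs 51.4%. RUNX and TCF matches each occurred in 3 of 11 windows (16.8% and 16% of all promoters). TATAAA was in none of the 11 windows vs 13.6% of all promoters. Such matches are descriptions of the letters and do not show that a factor binds.

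Normalized counts are given below tumor by tumor. They are reads divided by the size factor of the tumor, set within each model, and can be compared between tumors of a model but not between the models or between genes. The plot of the 9 genes by tumor shows all of these values.

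**Figure D1:**
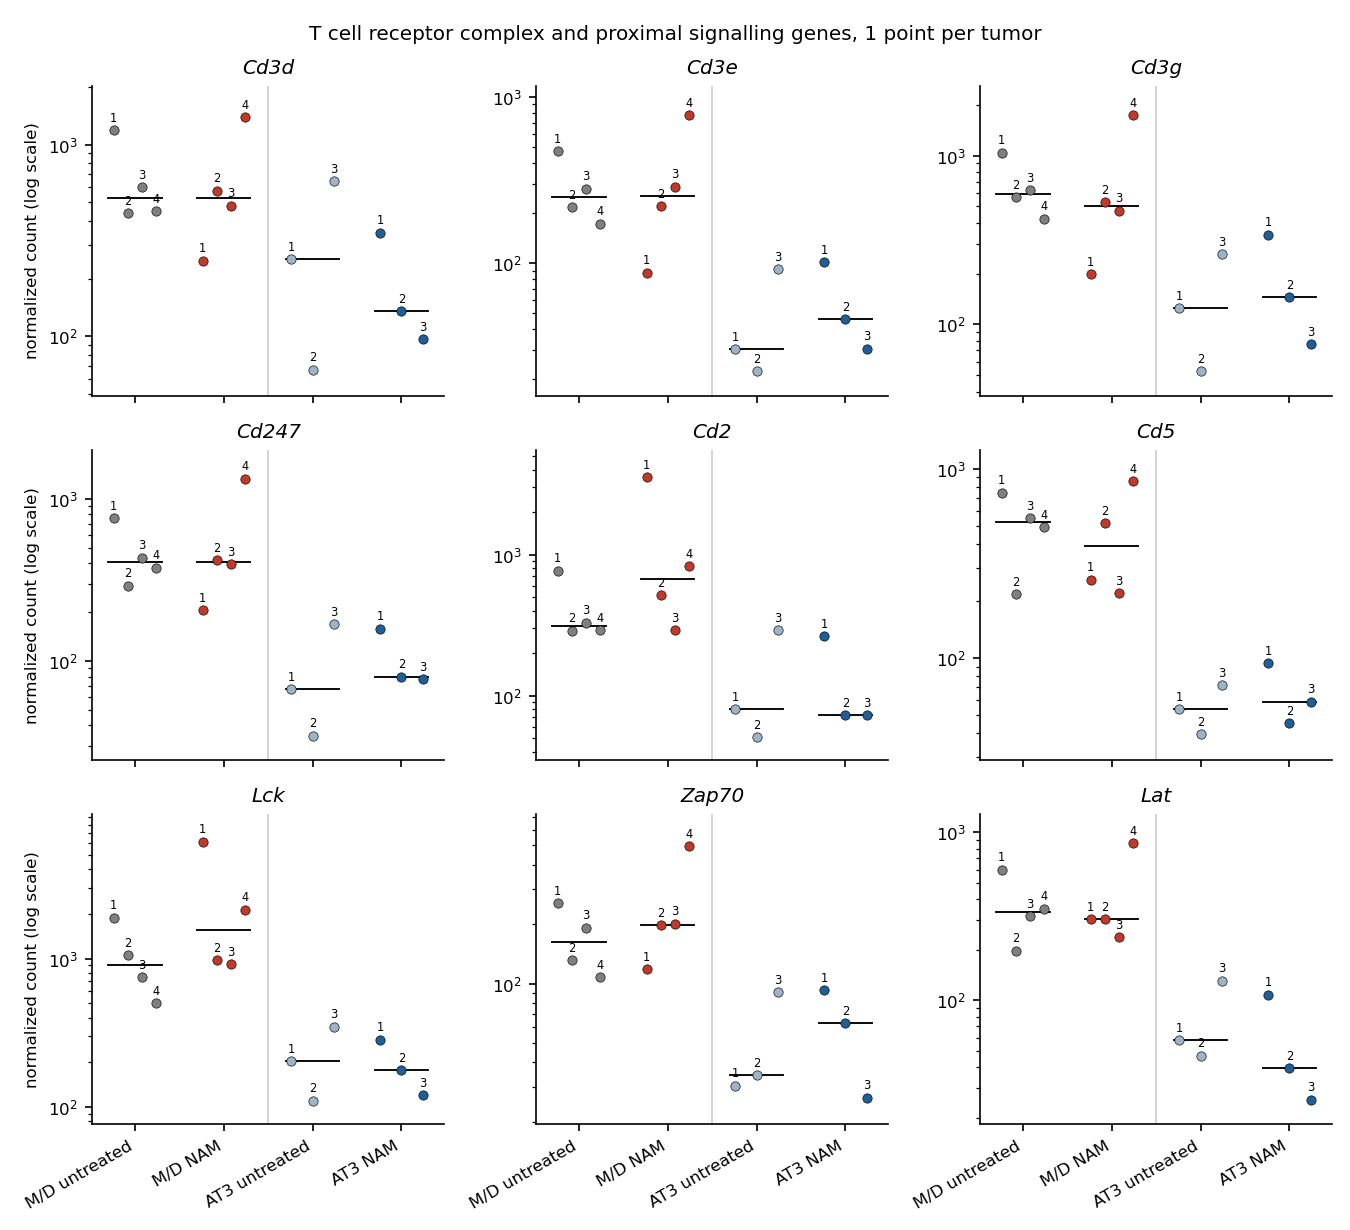
Normalized count (log axis) of the 9 genes in the 14 tumors, 1 point per tumor and a bar at the median of each group. M/D and AT3 tumors were scaled apart and are not on 1 scale. Cd2 and Lck have a single NAM-treated M/D tumor far above the rest, at 3554 and 6140, which is the tumor with the lowest Cd3d, Cd3e, Cd3g and Cd247.

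CD3 delta, encoded by Cd3d (1617 bases of exons), pairs with CD3 epsilon in the receptor complex. Cd3d was at 1185, 438, 598 and 449.9 in untreated M/D tumors 1 to 4, and at 249, 575, 481 and 1390 in NAM-treated tumors 1 to 4. For Cd3d in AT3 tumors, the values were 254, 67.0 and 645 without NAM and 347.5, 135.5 and 96.7 with NAM. Both groups overlapped in either model, and the lowest and the highest M/D value were both from NAM-treated tumors. The highest AT3 value was 9.62-fold the lowest, the widest range of any of the 9 genes in this model.

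CD3 epsilon, encoded by Cd3e (2550 bases), is needed for any T cell receptor to reach the surface. Cd3e was at 469.5, 217, 280.1 and 172 in untreated M/D tumors, and at 87.4, 220.4, 288 and 777 with NAM. For Cd3e in AT3 tumors, the values were 30.4, 22.3 and 92.0 untreated, and 101, 46.1 and 30.6 with NAM. A single NAM-treated tumor was highest in each model, with the others inside or below the untreated range in M/D tumors.

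CD3 gamma, encoded by Cd3g (2539 bases), forms the other pair with CD3 epsilon. Cd3g was at 1040, 565, 622 and 422.5 in untreated M/D tumors, and at 199, 531, 471 and 1734 with NAM. For Cd3g in AT3 tumors, the values were 125, 52.8 and 260 untreated, and 340.2, 145 and 76.0 with NAM. As for Cd3e, NAM-treated tumor 4 was the highest M/D tumor and NAM-treated tumor 1 the lowest.

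The zeta chain, encoded by Cd247 on chromosome 1 (chr1:165788679-165877276, plus strand, 2957 bases), carries the largest number of signalling motifs of the complex and also serves Fc and NK cell receptors. Cd247 was at 761, 291, 433 and 377 in untreated M/D tumors, and at 205, 418, 395 and 1329 with NAM. For Cd247 in AT3 tumors, the values were 66.7, 34.5 and 168 untreated, and 158, 79.96 and 76.8 with NAM. NAM-treated M/D tumor 4 and untreated M/D tumor 1 were the highest of their model for each of the 4 CD3 chain genes, and NAM-treated M/D tumor 1 was the lowest.

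CD2, encoded by Cd2 (chr3:101275900-101287939, minus strand, 1153 bases), is an adhesion and costimulatory receptor of T cells and NK cells that mouse B cells and lymphocyte precursors also make. Cd2 was at 768, 289, 329 and 289.7 in untreated M/D tumors, and at 3554, 515, 292 and 825.5 with NAM. For Cd2 in AT3 tumors, the values were 79.7, 50.8 and 291 untreated, and 264, 72.4 and 72.7 with NAM. Relative to the median of the 7 other M/D tumors, NAM-treated M/D tumor 1 was at 10.8-fold for Cd2 and at 0.312-fold for Cd3e.

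CD5, encoded by Cd5 (chr19:10718143-10738974, minus strand, 2989 bases), is a surface inhibitor of receptor signalling that a subset of B cells also carries. Cd5 was at 745, 216, 549 and 489 in untreated M/D tumors, and at 259, 516, 219 and 858 with NAM. For Cd5 in AT3 tumors, the values were 53.6, 39.6 and 71.6 untreated, and 93.6, 45.2 and 58.7 with NAM. Cd5 had the narrowest range in AT3 tumors, 2.36-fold from lowest to highest.

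LCK, encoded by Lck (chr4:129548344-129573641, minus strand, 2185 bases, a row that also names Mir8119), is the Src family kinase that starts the cascade and is present from early T cell precursors onward. Lck was at 1886, 1055, 747 and 499 in untreated M/D tumors, and at 6140, 973, 914 and 2132 with NAM. For Lck in AT3 tumors, the values were 203, 109.7 and 348 untreated, and 284, 176 and 119.8 with NAM. As for Cd2, NAM-treated M/D tumor 1 was far above the others, at 6.31-fold their median.

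ZAP70, encoded by Zap70 (chr1:36761798-36782820, plus strand, 2245 bases), docks on the phosphorylated CD3 and zeta chains. Zap70 was at 254.5, 131.5, 192 and 108 in untreated M/D tumors, and at 118, 197, 201 and 497 with NAM. For Zap70 in AT3 tumors, the values were 30.4, 34.5 and 90.3 untreated, and 92.3, 63.0 and 26.4 with NAM. Here NAM-treated M/D tumor 1 was the next to lowest of its model.

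LAT, encoded by Lat (chr7:126363830-126369568, minus strand, 2053 bases, a row that also names Mir7058), is the membrane adapter on which the downstream complex assembles. Lat was at 599, 198, 317 and 352 in untreated M/D tumors, and at 304, 304, 238 and 859 with NAM. For Lat in AT3 tumors, the values were 58.0, 46.7 and 131 untreated, and 108, 39.5 and 25.6 with NAM. NAM-treated M/D tumor 4 stood clear of the other 3 of its group, which lay within the untreated range.

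The highest and lowest levels of the 9 genes fell on a few tumors, and whether the genes followed tumors more than treatment was not tested. NAM-treated M/D tumor 4 was the highest M/D tumor for 7 of the 9 genes (all but Cd2 and Lck) and in the top 2 for all 9, whereas untreated M/D tumor 1 was in the top 2 for 7. NAM-treated M/D tumor 1 was highest for Cd2 and Lck and lowest for Cd3d, Cd3e, Cd3g and Cd247. Of all 21700 genes tested, 18.8% were highest in NAM-treated M/D tumor 4 and 28.1% in NAM-treated M/D tumor 1, where 27.3% were lowest. Such shares are not given for the top 2 places or for AT3 tumors. In AT3 tumors, untreated tumor 3 was highest for 5 genes (Cd3d, Cd247, Cd2, Lck and Lat) and NAM-treated tumor 1 for 4 (Cd3e, Cd3g, Cd5 and Zap70), and these 2 tumors held the top 2 places for all 9. Untreated AT3 tumor 2 was lowest for 7 genes, all but Zap70 and Lat. From lowest to highest tumor, the range was 3.97- to 12.3-fold in M/D tumors, 2.86- to 4.61-fold without NAM-treated tumor 1, and 2.36- to 9.62-fold in AT3 tumors. In bulk tumors, fewer T cells and less of these transcripts per cell cannot be told apart.

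Among the CD3 chain genes, the proportions within a tumor varied less than the levels. The ratio of Cd3g to Cd3e was between 1.64 and 2.60 in all 8 M/D tumors and between 2.36 and 4.10 in AT3 tumors, and that of Cd247 to Cd3e between 1.34 and 2.34 and between 1.55 and 2.51. These ratios are of counts not divided by length and are meant for comparing tumors. For Cd2 to Cd3e, NAM-treated M/D tumor 1 was at 40.7 and the 7 other M/D tumors were between 1.01 and 2.34. For Lck to Cd3e, the same tumor was at 70.2 and the others were between 2.67 and 4.86. This tumor was also the highest for Lat to Cd3e, at 3.48 vs 0.828 to 2.04, and for Zap70 to Cd3e, at 1.35 vs 0.542 to 0.895. By smaller margins it was highest for Cd3d (2.85 vs at most 2.61), Cd247 (2.34 vs at most 2.19) and Cd5 (2.96 vs at most 2.84) to Cd3e. Its Lat and Zap70 levels themselves were not raised, at 0.959- and 0.598-fold the median of the others, whereas its Cd3e was at 0.312-fold. In AT3 tumors, the ratio to Cd3e ran from 1.57 to 3.16 for Cd2 and from 2.82 to 6.67 for Lck. It ran from 0.779 to 1.92 for Cd5 and from 0.838 to 2.09 for Lat. For Cd3d, it was 8.33, 3.00 and 7.01 in untreated tumors 1, 2 and 3 and 3.45, 2.94 and 3.16 in NAM-treated tumors 1, 2 and 3. The high Cd3d values were those of the tumors with the most negative length trend, and Cd3d has the shorter transcript of the pair. Cd2 has a shorter transcript still (1153 bases). Its ratio was 2.62 and 3.16 in untreated tumors 1 and 3 and 1.57 to 2.61 in the other AT3 tumors. The part of the length trend in these values was not tested on its own.

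**Figure D2:**
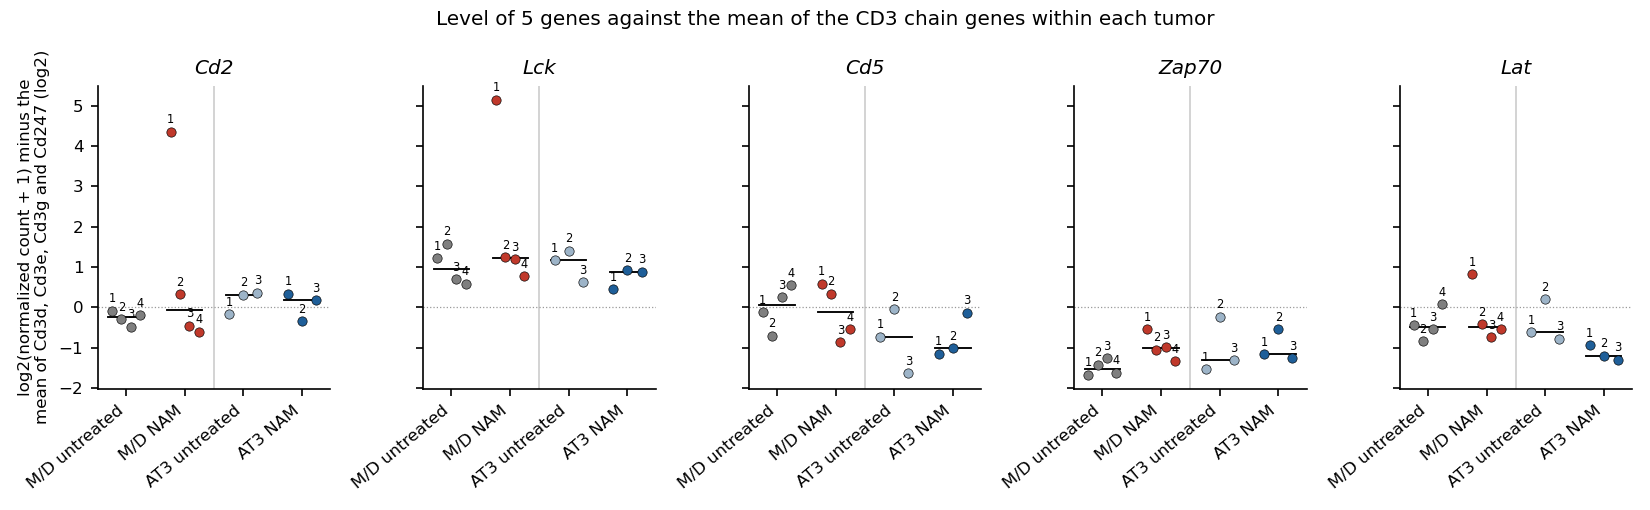
Level of Cd2, Cd5, Lck, Zap70 and Lat within each tumor, as log2(normalized count + 1) minus the mean of the same over Cd3d, Cd3e, Cd3g and Cd247, with 1 point per tumor and a bar at the group median. NAM-treated M/D tumor 1 lies at 4.36 for Cd2 and 5.15 for Lck, and the other M/D tumors lie between −0.61 and 0.33 for Cd2 and between 0.58 and 1.57 for Lck.

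Ptprc encodes CD45, a phosphatase on all leukocytes that activates LCK, and gives a rough measure of total leukocyte RNA. In M/D tumors, Ptprc was at 8034, 4353, 6652 and 4123 untreated, and at 9717, 6625, 5003 and 11736 with NAM. Cd3e came to 0.900% of Ptprc in NAM-treated tumor 1 and to 3.33% to 6.62% in the 7 other M/D tumors. Lck came to 63.2% of Ptprc in that tumor vs 11.2% to 24.2% in the others, and Cd2 to 36.6% vs 4.95% to 9.55%. In AT3 tumors, Cd3e came to 4.37%, 2.60% and 7.76% of Ptprc untreated and to 6.83%, 3.02% and 2.21% with NAM. Relative to leukocyte RNA, NAM-treated M/D tumor 1 thus had little of the CD3 chains and much Cd2 and Lck.

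The coreceptor genes Cd8a and Cd4 also parted in NAM-treated M/D tumor 1. Cd8a, a chain of the coreceptor of cytotoxic T cells, was at 1540, 677, 925 and 422 in untreated M/D tumors and at 306, 732, 723 and 2816 in NAM-treated ones. Cd4, the coreceptor of helper T cells that some dendritic cells and precursors also make, was at 457, 323, 245 and 294 untreated and at 1885, 229, 262 and 1178 with NAM. NAM-treated tumor 1 was thus the lowest M/D tumor for Cd8a and the highest for Cd4. Cd8b1, Cd6 and Thy1 were also at their lowest in it, making 4 of 9 coreceptor and costimulation genes, with only Cd4 at its highest. Of all genes tested, 27.3% were at their lowest in this tumor and 28.1% at their highest.

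Genes of the cascade beyond LAT were mostly at their highest in NAM-treated M/D tumor 1, 14 of 22, as were 9 of 14 negative regulators, vs 28.1% of all genes tested. Rhoh, which encodes a GTPase that helps ZAP70 reach the receptor, was at 20480 there and at 383 to 894 in the 7 other tumors. Tespa1, a gene of thymocyte signalling, was at 1105 vs 6.44 to 124. Vav1, an exchange factor, was at 11925 vs 1719 to 3726, and Csk, the kinase that holds LCK inactive, at 22219 vs 4787 to 6678. Trat1, which encodes a protein bound to the receptor chains, was at its lowest, 14.4 vs 27.4 to 109. The constant chains of the receptor were not analysed here. These genes were picked after their values were seen. Of 8 B cell markers 7 were at their highest in this tumor and of 7 precursor lymphocyte markers 5, and their part in the Cd2 and Lck values was not tested.

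**Figure D3:**
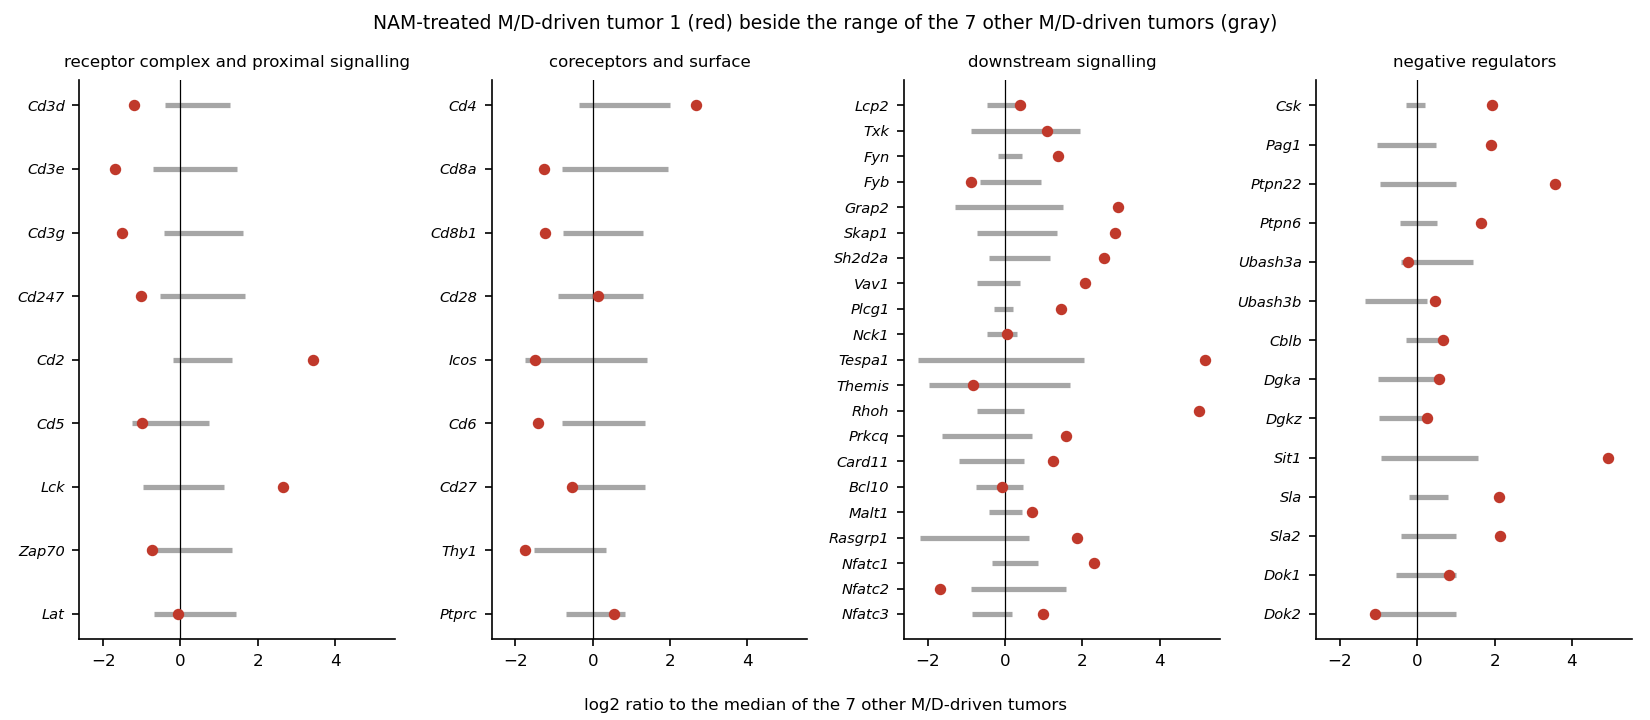
For genes of the pathway lists, the log2 ratio of NAM-treated M/D tumor 1 to the median of the 7 other M/D tumors (red points), with the range of those 7 tumors on the same scale (gray lines). Cd2, Lck, Cd4, Rhoh and Tespa1 lie right of the gray range and Cd3d, Cd3e, Cd3g, Cd247 and Cd8a lie left of it.

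NAM treatment was compared with no treatment in M/D tumors. None of the 9 genes was higher or lower by the thresholds used here (fold change of 1.5 or more, unadjusted p of 0.05 or less), vs 3.03% of the 21700 genes tested that were higher and 3.19% that were lower. The 2 groups overlapped for every gene, whereas 4.43% of all genes did not overlap. Fold changes are on the scale of log2(normalized count + 1), which understates those of low genes. The log2 fold change was −0.14 ± 0.55 (SE) for Cd3d, −0.05 ± 0.64 for Cd3e, −0.21 ± 0.61 for Cd3g and 0.08 ± 0.57 for Cd247. It was −0.20 ± 0.54 for Cd5, 0.43 ± 0.49 for Zap70 and 0.13 ± 0.49 for Lat. Cd2 had the highest value, 1.09 (95% confidence interval −0.59 to 2.77, adjusted p = 0.776 in limma), followed by Lck at 0.99 (−0.52 to 2.5, adjusted p = 0.774). Exact two-sided permutation tests gave p = 0.23 for Cd2 and p = 0.26 for Lck, where 0.029 is the smallest value this design allows. Adjusted p values in limma ran from 0.774 to 0.991 over the 9 genes. Their median log2 fold change was 0.08, and that of all genes 0.01. The intervals were wide enough to hold a change of 1.5-fold in either direction for all genes but Lck, whose interval held the upward one only.

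These values turned on single tumors. Without NAM-treated tumor 1, which leaves experiment 1 only, every one of the 9 log2 fold changes was above 0, with none past the thresholds. Cd3e was then at 0.47, Cd247 at 0.47, Cd3d at 0.25, Cd3g at 0.27 and Zap70 at 0.73, whereas Cd2 came down to 0.39 and Lck to 0.41. The median of the 9 was then 0.39. Without NAM-treated tumor 4 but with tumor 1 kept, the CD3 chain genes went the other way. Cd3d and Cd3e were at −0.58, Cd3g at −0.77 and Cd247 at −0.43, and the median of the 9 was −0.43. In neither case did a gene pass the thresholds. DESeq2 on the recovered reads placed Cd2 past them, at a log2 fold change of 1.62 with an adjusted p of 0.394, where 5.93% of all genes were higher. With the trends of length and GC content removed, Cd2 was at 1.27, Lck at 1.16 and Zap70 at 0.63, and none of the 9 genes passed. Their median was then 0.15, and that of all genes 0.10.

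In M/D tumors, 3.03% of all genes tested were higher with NAM and 3.19% lower. Among the other genes of the pathway, 0 of 9 coreceptor and costimulation genes and 0 of 22 downstream genes passed the thresholds there. Of 14 negative regulators, 1 did. This was Dgkz, a kinase that removes diacylglycerol, which rose by 0.69 on the log2 scale (adjusted p = 0.734 in limma), a call lost without untreated tumor 3 or 4 (0.62 and 0.54). Ptprc was at 0.49 ± 0.33 (SE), Cd4 at 0.91 ± 0.69, Cd8a at 0.04 ± 0.67 and Cd8b1 at −0.11 ± 0.59, and without NAM-treated tumor 1 at 0.39, 0.37, 0.52 and 0.29. Cd4 passed the thresholds with DESeq2 on the recovered reads, at 1.42. The median log2 fold change was 0.43 over the downstream genes and 0.12 without NAM-treated tumor 1. Of 8 NK cell markers, Klrb1c rose by 1.97 and Klrd1 by 1.18 on the log2 scale, with an adjusted p of 0.734 for both. Without NAM-treated tumor 1, Klrb1c was at 1.27 and still passed. Klrb1c lost the call without untreated tumor 2, 3 or 4, at 1.84 to 1.90, and Klrd1 without untreated tumor 2 or 4 or NAM-treated tumor 1, at 0.97 to 1.04. Of the markers of B cells (8), precursor lymphocytes (6 tested), myeloid cells (8), epithelium (9) and stroma (8), none passed the thresholds, and without NAM-treated tumor 1 the epithelial marker Cdh1 was lower.

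**Figure D4:**
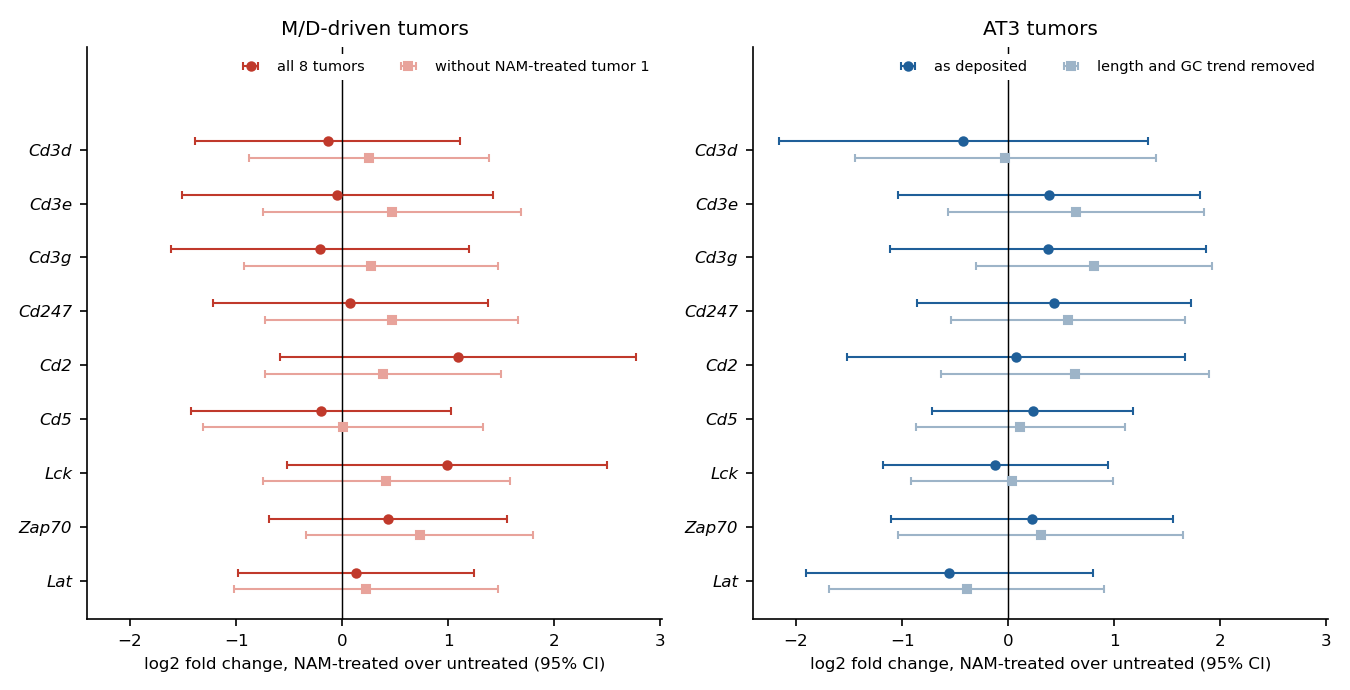
Log2 fold change of NAM-treated over untreated tumors for the 9 genes in M/D and in AT3 tumors, with 95% confidence intervals from limma, in all tumors and in the alternative named in each legend. Every interval of the fits over all tumors crosses 0, and Cd2 and Lck have the highest M/D values, 1.09 and 0.99, which come down to 0.39 and 0.41 without NAM-treated M/D tumor 1.

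In AT3 tumors, none of the 9 genes passed the thresholds either, vs 12.2% of the 19281 genes tested that were higher with NAM and 10.9% that were lower. This background depended on single tumors and on the trends, with 2358 genes higher over all tumors, 904 when NAM-treated tumor 3 was left out, 3459 when NAM-treated tumor 1 was left out, and 1294 of 16429 with the trends removed. The groups overlapped for all 9, and 22.6% of all genes did not overlap. The log2 fold change was −0.42 ± 0.77 (SE) for Cd3d, 0.38 ± 0.63 for Cd3e, 0.37 ± 0.66 for Cd3g and 0.43 ± 0.57 for Cd247. It was 0.08 ± 0.70 for Cd2, 0.23 ± 0.42 for Cd5, −0.12 ± 0.47 for Lck, 0.23 ± 0.59 for Zap70 and −0.55 ± 0.60 for Lat. Lat and Cd3d had the lowest values. Adjusted p values in limma ran from 0.569 to 0.951, and an exact permutation test of 3 vs 3 tumors cannot go below 0.1. The median of the 9 genes was 0.23 and that of all genes −0.05. With the trends of length and GC content removed, Cd3g was at 0.81, Cd3e at 0.64, Cd2 at 0.63 and Cd247 at 0.57, Cd3d came to −0.02 and Lat to −0.39, and none passed the thresholds.

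Leaving out untreated tumor 3 or NAM-treated tumor 1, which held the top places, moved the AT3 median to 0.71 and −0.19, respectively. Without untreated tumor 2, which was lowest for 7 genes, it was −0.21. Relative to Ptprc within each tumor, Cd3d fell by 1.13 on the log2 scale (adjusted p = 0.0457 in limma) and Lat fell by 1.26, and the 9 genes were all below 0 with a median of −0.48. On that scale the median of all genes was −0.76, with 37.9% of them lower and 1.4% higher.

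Ptprc itself rose with NAM in AT3 tumors, from 697, 859 and 1186 to 1476, 1525 and 1385, a log2 fold change of 0.71 ± 0.24 (adjusted p = 0.169 in limma). Its groups did not overlap, as was so for 22.6% of all genes. The Ptprc call was lost with the trends removed (0.39), without untreated tumor 1 (0.53) and without NAM-treated tumor 2 (0.68). Cd4 was at 0.92 ± 0.49, Cd8a at 0.35 ± 0.93 and Cd8b1 at 0.06 ± 0.79. Cd4 was at 23.2, 74.1 and 48.0 untreated and at 109, 58.3 and 90.9 with NAM. Ptprc was the only one of 9 coreceptor and costimulation genes to pass, a share near the 12.2% of all genes that were higher.

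Downstream of LAT, 6 of 22 genes rose in AT3 tumors and none fell, vs 12.2% of all genes higher and 10.9% lower. Rasgrp1, the exchange factor that activates Ras in T cells, rose by 2.82 on the log2 scale, Grap2, the adapter that links LAT to SLP-76, by 2.4, and the transcription factors Nfatc2 and Nfatc3 by 1.88 and 1.77, with adjusted p values of 0.166 to 0.203. The other 2 were Nfatc1 and Malt1. With the trends removed, 5 rose and Nck1 fell, vs 1294 higher and 1299 lower of 16429 genes, and Nfatc2 no longer passed (1.07). Nfatc2 also lost the call without untreated tumor 1 or 3 or NAM-treated tumor 2 or 3, at 1.41 to 1.64. Of 14 negative regulators, Ubash3b, a phosphatase of ZAP70 also found outside T cells, rose by 1.27 (0.59 and not past the thresholds with the trends removed). Of the 9 genes of the receptor complex and its first kinases and adapter none passed, and the difference between the lists was not tested.

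Markers of other cells moved in the AT3 comparison as well, where 12.2% of all genes were higher and 10.9% lower. With the trends removed, 1294 of 16429 genes were higher and 1299 lower. Of 8 myeloid markers, 4 rose (Itgam, Adgre1, Csf1r and Mrc1) and 2 of them with the trends removed (Itgam and Adgre1), with summed levels of 34452 to 83623 untreated and 42808 to 62711 with NAM. Of 8 stromal markers, 3 rose (Pdgfrb, Pdgfra and Pecam1), and 2 with the trends removed (Pdgfrb and Lum), with sums of 72190 to 221674 and 114236 to 310481. Epithelial markers went both ways, with Esrp1 and Cdh1 higher and Krt19 and Krt14 lower of 9, and only Esrp1 past the thresholds with the trends removed, at sums of 83152 to 102664 and 78334 to 86899. Ptcra and Rag1 of 5 precursor markers tested fell, and 0 of 8 NK cell markers passed. Leaving out 1 tumor ended the call of Mrc1 (untreated tumor 1 or 3, NAM-treated tumor 2 or 3, at 0.55 to 0.81), Pdgfra (untreated tumor 3, NAM-treated tumor 2 or 3, at 0.84 to 1.05), Cdh1 (NAM-treated tumor 2, at 0.72), Krt19 (untreated tumor 1, at −0.76), Krt14 (untreated tumor 2, NAM-treated tumor 1 or 3, at −0.78 to −0.46) and Rag1 (untreated tumor 1 or 3, NAM-treated tumor 2 or 3, at −0.76 to −0.61). The part of these cells in the downstream genes was not tested.

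The effect of NAM was also compared between the models by an interaction term over all 14 tumors. None of the 9 genes passed the thresholds, vs 6.97% of 22710 genes with a higher effect in M/D tumors and 7.9% with a lower one. The difference of the log2 effects, M/D minus AT3, was highest for Lck (1.11 ± 0.92, SE) and Cd2 (1.02 ± 1.14), and lowest for Cd3g (−0.58 ± 1.00). Without NAM-treated M/D tumor 1, Lck came to 0.54 and Cd2 to 0.31, and Lat was then the highest of the 9, at 0.78. Over all tumors, Cd3e was at −0.43, Cd5 at −0.43, Cd247 at −0.36, Zap70 at 0.21, Cd3d at 0.29 and Lat at 0.68. Every 95% confidence interval of these differences crossed 0. The 9 genes had a median of 0.21, and 0.31 without NAM-treated M/D tumor 1. Ptprc, Cd4, Cd8a and Cd8b1 were at −0.22, −0.01, −0.31 and −0.17, and at −0.32, −0.55, 0.16 and 0.23 without NAM-treated M/D tumor 1.

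Untreated M/D tumors were then set against untreated AT3 tumors, on reads scaled to a common library size by TMM over the 7 tumors (RPM). All but Cd3d were higher in M/D tumors, 8 of 9 genes vs 30.8% of the 21677 genes tested, and 0 of 9 were lower vs 25% of genes. At an adjusted p of at most 0.05 in limma, 7 of 9 passed, vs 50.5% of all genes, so that a large share of the transcriptome differed as well. Groups did not overlap for 6 of the 9, with M/D tumors higher for each, which was the case for 29.5% of all genes. Model, mode of tumor growth and experiment cannot be told apart in this comparison.

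Cd5 had the largest difference before the trends were removed (with them removed, Cd3g at 2.20 and Cd3e at 2.06 were above Cd5 at 2.02). Cd5 was measured with 11.6, 3.29, 8.42 and 7.30 RPM in M/D tumors 1 to 4 and 1.03, 0.760 and 1.42 in AT3 tumors 1 to 3. Its log2 fold change, on the scale of log2(RPM + 0.2), was 2.53 ± 0.44 (SE), a 5.78-fold difference with an adjusted p of 0.00215. Cd3e had 7.29, 3.30, 4.30 and 2.57 RPM in M/D and 0.583, 0.429 and 1.83 in AT3 tumors. The lowest M/D tumor was thus above the highest AT3 tumor for both genes. The log2 fold change was 2.09 ± 0.51 for Cd3e, 2.06 ± 0.52 for Cd247 and 1.93 ± 0.52 for Cd3g, with adjusted p values of 0.00952, 0.0115 and 0.0144.

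Among the kinases and the adapter, Lck was at 29.3, 16.0, 11.5 and 7.45 RPM in M/D and at 3.89, 2.10 and 6.90 in AT3 tumors. It was higher by 1.82 ± 0.52 (SE) on the log2 scale, with an adjusted p of 0.0181. Lat was higher by 1.76 ± 0.47 (adjusted p = 0.0138), and neither gene overlapped between the models. Zap70 was at 3.95, 2.00, 2.95 and 1.61 RPM in M/D and at 0.583, 0.662 and 1.79 in AT3 tumors, so that the groups overlapped. It was higher by 1.28 ± 0.46 (adjusted p = 0.0435), a call lost without untreated M/D tumor 1 and without AT3 tumor 1 or 2.

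Cd2 and Cd3d were the least certain. For Cd2, with 11.9, 4.39, 5.04 and 4.32 RPM vs 1.53, 0.974 and 5.77, the log2 fold change was 1.39 ± 0.60 (SE, adjusted p = 0.0797), and the call was lost without M/D tumor 1 or 3 and without AT3 tumor 1 or 2. Cd3d was at 18.4, 6.66, 9.17 and 6.71 RPM in M/D and at 4.86, 1.29 and 12.8 in AT3 tumors. Its log2 fold change of 1.05 ± 0.69 did not pass (adjusted p = 0.224), but was 1.81 and past the thresholds without AT3 tumor 3. Over the 9 genes the median was 1.82, vs 0.13 over all genes, and leaving out 1 tumor at a time left 6 to 9 genes past the thresholds. Without AT3 tumor 2 or AT3 tumor 1, 6 genes passed, as they did without M/D tumor 1.

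**Figure D5:**
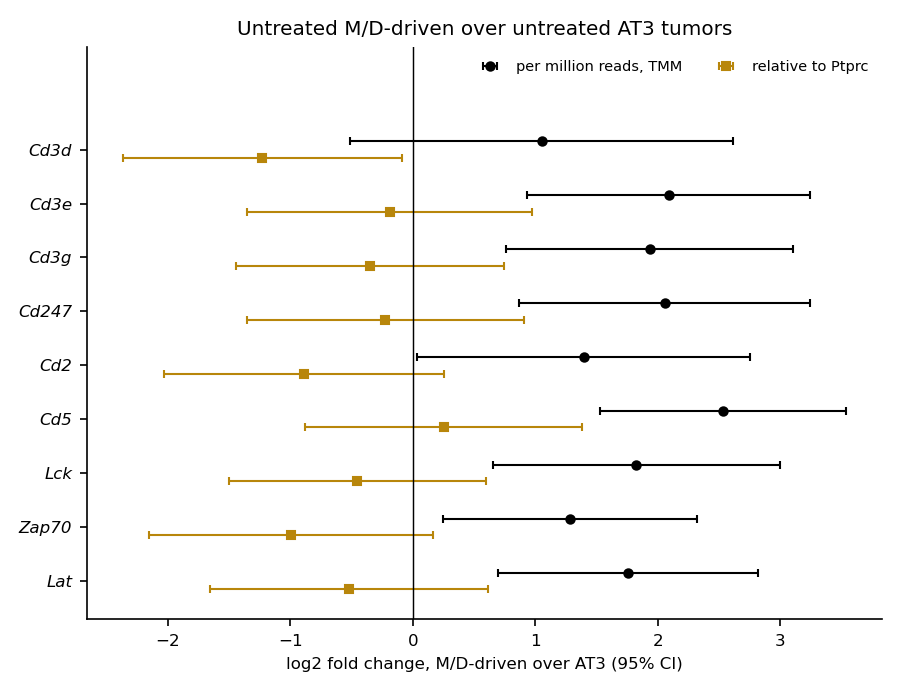
Log2 fold change of untreated M/D over untreated AT3 tumors for the 9 genes, with 95% confidence intervals from limma, on TMM-scaled RPM and relative to Ptprc within each tumor. The TMM values run from 1.05 (Cd3d) to 2.53 (Cd5) and all lie above 0, and relative to Ptprc all but Cd5 lie below 0.

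Ptprc was itself 4.86-fold higher in M/D tumors (log2 fold change 2.28 ± 0.30). Relative to Ptprc, none of the 9 genes passed as higher in M/D tumors. Cd5 was at 0.25, Cd3e at −0.19, Cd247 at −0.23, Cd3g at −0.35, Lck at −0.46, Lat at −0.52, Cd2 at −0.89 and Zap70 at −1.0. Cd3d was lower by the thresholds, at −1.23. On this scale the median of all genes was −2.15, and 77.2% of them were lower and 3.38% higher. M/D tumors thus had more of most of these transcripts per read, and a higher share per Ptprc read was detected for none.

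The wider pathway followed in the comparison of models. Of 9 coreceptor and costimulation genes, 7 were higher in M/D tumors, vs 30.8% of all genes, led by Cd6 at 3.16 on the log2 scale, with Cd4 at 2.26, Cd8b1 at 2.19 and Cd8a at 1.97. Icos and Cd27 did not pass. Of 22 downstream genes, 16 were higher and Nck1 was lower. Rasgrp1 was at 4.30, Grap2 at 2.94, Nfatc2 at 2.86 and Prkcq, the kinase that joins the receptor to NF-kB, at 2.71. Of 14 negative regulators, 10 were higher, among them Dgka at 4.28, Pag1, which anchors CSK, at 2.82, Ubash3b at 2.64 and Sla at 2.20. With the trends of length and GC content removed, 6 of 9 coreceptor genes, 11 of 22 downstream genes and 6 of 14 negative regulators were higher, vs 22.3% of all genes, and Nck1, Bcl10 and Dgkz were lower. Cd8a lost the call without M/D tumor 1 or 3 and without AT3 tumor 1 or 2, at 1.09 to 1.90, and also with the upper quartile (1.74), edgeR (1.43), DESeq2 (1.36) and the trends removed (1.66).

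Markers of other cells were higher in M/D tumors as well, 6 of 8 for myeloid cells, 6 of 9 for epithelium and 6 of 8 for stroma (30.8% of all genes), and with the trends removed 6, 6 and 3. Of NK cell markers only Nkg7 passed (1 of 8, at 1.56), a call lost with edgeR (1.39), without M/D tumor 1 (1.28) and without AT3 tumor 1 (1.52) or 2 (0.98), and with the trends removed Klrk1 was higher as well and Eomes lower. Of 8 B cell markers none passed, and of 5 precursor markers tested Rag1 and Ptcra were lower in M/D tumors. Removing the trends of length and GC content left 7 of the 9 genes higher (22.3% of all genes), with Zap70 no longer past the thresholds and a median of 1.56 vs −0.20 for all genes. The part of other cells in the difference was not tested.

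Among all genes but the 9, those most like the mean log2 level of the 9 were listed for each model. Over the 8 M/D tumors, NAM-treated tumor 1 included, they were led by Ubash3a, one of the negative regulators listed above (Pearson r = 0.953), Cxcr3 (0.947), Naip2 (0.943) and 4933427D14Rik (0.927), among the genes tested with a single symbol. Over the 6 AT3 tumors they were Cyp4f18 (0.992), Zfp367 (0.992), Ctss (0.987), Scimp (0.985) and Dnajb13 (0.983). With 8 or 6 tumors and this many genes, high values arise in number, and all points of a model share its normalization. In M/D tumors, Cd2 and Lck had an r of 0.335 and 0.387 with the mean of the 9, and the other 7 had 0.781 to 0.940. NAM-treated tumor 1, where Cd2 and Lck parted from the CD3 chain genes, is included, and no r without it is given. In AT3 tumors, all 9 had 0.851 to 0.979. Each of the 9 genes is itself part of the mean it was set against, which raises its r in both models.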

How the data were processed

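Tumors were mapped to 4 groups from the labels (14 tumors, 0 columns of values left unmapped). In the deposited table, the authors give a signal per gene that is normalized, from reads mapped with STAR 2.4.0 on mm10, counted on the constitutive regions of Mouse FAST DB genes and divided by DESeq2 size factors, apart for each model. All values came back as whole reads (tolerance 0.01), which gave the depth and the alternatives on counts.

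The members and the gene lists were chosen with earlier results of these data known. As the values are not raw counts, limma 3.58.1 (R 4.3.3, mean-variance trend) was fitted to log2(normalized count + 1) where any group averaged 10 or more, per model for NAM, over 14 tumors for the interaction, and to log2(TMM-scaled RPM + 0.2) in the 7 untreated tumors for the models. Thresholds were a fold change of 1.5 or more with an unadjusted p of 0.05 or less, and Benjamini-Hochberg adjustment ran over all genes tested. Single genes were also tested by exact two-sided permutation (18 tests). All 9 genes were named, as were Ptprc, Cd4, Cd8a and Cd8b1, and of each other list at most the 4 genes past the thresholds with the largest change. Lists were T cell receptor chains, coreceptors, downstream genes, negative regulators, and markers of NK, B, precursor, myeloid, epithelial and stromal cells. Likeness was the Pearson r with the mean log2 level of the 9 genes. Results on some of the genes that this rule names are not reported here. Alternatives were other pseudocounts, filters and scalings, edgeR 4.0.16 and DESeq2 1.42.0 on the recovered reads, a replicate block and leaving out each tumor, and those added after seeing the data were removal of length and GC trends (splines of 4 df) and values relative to Ptprc.

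On simulated data with 200 of 21115 genes changed 4-fold, the M/D fit placed 147 of them past the thresholds with 1004 false calls, and 0 past an adjusted p of 0.05. The AT3 fit, on 18642 genes, placed 180 past the thresholds with 927 false calls, and 121 past the adjusted p with 6 false. The fit between models, on 20696 genes, placed 171 past the thresholds with 992 false calls, and 75 past the adjusted p with 6 false. The simulated counts held no length trend and no outlying tumor, so that these rates may not carry over to the real tumors.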

Additional observations from a re-analysis of the deposited data

Results flagged for a closer look

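Of 34 gene and ratio values in groups of 4 tumors, 5 had a tumor far from the other 3 by Dixon's test. For independent values, chance gives about 1 in 20. These values are not independent, as the genes come from the same tumors and the ratios share Cd3e. Whether 5 exceeds chance can therefore not be judged. Cd2 stood out in NAM-treated M/D tumors, where tumor 1 was at a normalized count of 3554. Its ratio to Cd3e in that tumor, 40.7, and that of Lck to Cd3e, 70.2, stood out as well, whereas the Lck count itself, 6140, did not pass this test. Cd2 also stood out in untreated M/D tumors, for 768 in tumor 1, and Lat in NAM-treated M/D tumors, for 859 in tumor 4.

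Some genes of the lists differed in their NAM effect between the models by the interaction term over 14 tumors (M/D minus AT3, log2). They were Rasgrp1 at −2.83, Nfatc3 at −1.72 and Malt1 at −1.0 among downstream genes, Klrd1 at 2.39 among NK cell markers, Itgam at −1.61 and Csf1r at −1.01 among myeloid markers, and Cdh1 at −2.87 among epithelial markers. With the trends of length and GC content removed, all 7 were short of the thresholds, at −2.25 (Rasgrp1), −1.09 (Nfatc3), −0.72 (Malt1), 1.49 (Klrd1), −1.05 (Itgam), −0.38 (Csf1r) and −2.32 (Cdh1). Without NAM-treated M/D tumor 1, Cdh1 was at −1.64 and still passed, and Klrd1 was at 2.18 and did not. Without NAM-treated AT3 tumor 3, Itgam (−1.36), Nfatc3 (−1.38), Klrd1 (1.83), Malt1 (−0.82) and Cdh1 (−2.79) also lost the call, and Rasgrp1 lost it without untreated AT3 tumor 2 (−2.48). Malt1, Klrd1 and Cdh1 lost it without several other tumors too.

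A second row named Cd247 (chr1:165781073-165789367), which overlaps the start of the first, was left out of the comparisons. It was at 8.31, 1.09, 3.76 and 8.85 in untreated M/D tumors and at 47.5, 13.4, 8.28 and 27.3 in NAM-treated ones, with a mean of 24.1 in the latter. Its log2 fold change was 1.91 ± 0.77 (SE, unadjusted p = 0.0358 and adjusted p = 0.734 in limma), past the thresholds, but 1.5 and short of them without NAM-treated tumor 1, whereas that of the main Cd247 row was 0.08. The AT3 tumors had at most 3.05.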

How the results depend on the processing

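With 3 or 4 tumors per group that spread over several fold, no NAM effect on the 9 genes passed in either model or in the interaction, with 1 exception: DESeq2 in M/D tumors called 1 gene higher (Cd2). The medians over the 9 genes ran, when 1 tumor was left out, from −0.43 to 0.39 in M/D tumors, from −0.21 to 0.71 in AT3 tumors, from −0.48 to 0.59 for the interaction and from 1.41 to 2.24 between the models, where 6 to 9 genes were higher. The sign of a NAM effect near 0 depended on the setting, and the cause was not tested. In M/D tumors, Cd3d was at 0.004 with DESeq2 and 0.043 with trends removed, Cd3e at 0.047 (upper quartile), 0.23 (edgeR), 0.26 (DESeq2) and 0.036 (trends removed), Cd3g at 0.10 (edgeR) and 0.14 (DESeq2), and Cd8b1 at 0.022 (DESeq2) and 0.073 (trends removed). In AT3 tumors, Cd2 was at −0.046 (edgeR) and −0.023 (DESeq2), Lck at 0.034 (trends removed), Cd8a at −0.12 (edgeR) and −0.093 (DESeq2), and Cd8b1 at −0.016 (upper quartile), −0.029 (edgeR) and −0.003 (DESeq2). In the interaction, Cd3e was at 0.013 (DESeq2), Cd247 at 0.09 (edgeR) and 0.14 (DESeq2), Ptprc at 0.14 (trends removed), Cd4 at 0.055 (pseudocount 5), 0.20 (upper quartile), 0.57 (edgeR), 0.63 (DESeq2) and 0.22 (trends removed), Cd8a at 0.47 (edgeR) and 0.51 (DESeq2), and Cd8b1 at 0.034 (upper quartile), 0.036 (edgeR) and 0.09 (DESeq2). Leaving out 1 tumor also turned signs. In M/D tumors the ranges were −0.58 to 0.25 (Cd3d), −0.58 to 0.47 (Cd3e), −0.77 to 0.27 (Cd3g), −0.43 to 0.47 (Cd247), −0.56 to 0.091 (Cd5), −0.27 to 0.40 (Lat), −0.55 to 0.52 (Cd8a) and −0.56 to 0.29 (Cd8b1). In AT3 tumors they were −1.28 to 0.34 (Cd3d), −0.084 to 0.98 (Cd3e), −0.21 to 0.93 (Cd3g), −0.10 to 1.03 (Cd247), −0.54 to 0.80 (Cd2), −0.052 to 0.46 (Cd5), −0.54 to 0.28 (Lck), −0.16 to 0.73 (Zap70), −0.58 to 1.36 (Cd8a) and −0.52 to 0.79 (Cd8b1). In the interaction they were −0.48 to 1.15 (Cd3d), −1.02 to 0.085 (Cd3e), −1.14 to 0.00 (Cd3g), −0.95 to 0.17 (Cd247), −0.29 to 0.59 (Zap70), −0.55 to 0.46 (Cd4), −1.32 to 0.62 (Cd8a) and −0.90 to 0.41 (Cd8b1).

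Between the models, Cd2 also lost the call with the upper quartile, a pseudocount of 1, a group mean of at least 50, edgeR and DESeq2. Library size alone, the upper quartile and removal of trends put the median of all genes at 0.37, −0.08 and −0.20 and that of the 9 genes at 2.10, 1.59 and 1.56, and the genes called higher and lower at 7860 and 4061 for library size vs 6677 and 5429. In M/D tumors the upper quartile gave 879 higher and 544 lower vs 658 and 692, edgeR 992 higher and DESeq2 1287, and in the interaction 2561 and 1181 vs 1582 and 1795. Untreated and NAM-treated tumors of the same number had correlations of −0.44 to 0.11 in M/D and −0.16 to 0.26 in AT3 tumors. Untreated AT3 tumors 1 and 2 were most like the NAM-treated tumor of their number (0.13 and 0.26), and tumor 3 was not. Whether replicate numbers mark pairs cannot be told from this. With a replicate block, 0 of the 9 genes were called in M/D tumors, 0 in AT3 tumors and 7 between the models (median 2.13, Cd2 lost). In AT3 tumors, the block took the genes at an adjusted p of at most 0.05 in limma from 1 to 1296.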

Other observations

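Likeness to the 4 CD3 chain genes alone was computed after seeing that Cd2 and Lck departed from them in 1 tumor. Over the 8 M/D tumors, 1700001L05Rik had the highest Pearson r (0.986) to the mean log2 level of Cd3d, Cd3e, Cd3g and Cd247. Next came Cd8a (0.98) and Xcl1 (0.973), a chemokine gene of cytotoxic T cells and NK cells. They were followed by Cxcr6 (0.971), a receptor of tissue T cells, and Cd6 (0.965), a neighbor of Cd5 in the genome and in function. Zap70 had 0.907, Lat 0.781 and Cd5 0.754, whereas Cd2 had −0.21 and Lck −0.11. NAM-treated M/D tumor 1, with the highest Cd2 and Lck and the lowest CD3 chain levels, is included. The low r of Cd2 and Lck therefore repeats what was already seen in it, and no r without it is given. In the 7 other M/D tumors, the ratio to Cd3e stayed between 1.01 and 2.34 for Cd2 and between 2.67 and 4.86 for Lck. Over the 6 AT3 tumors, the list held Zfp367 (0.997), Ctss (0.995) and Napsa (0.985). It also held the MHC class II genes H2-Aa (0.988) and H2-Eb1 (0.984), which antigen-presenting cells make. These are descriptions over few tumors that share a normalization.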
